A study of Drosophila melanogaster with 4 samples.

Results

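The interior of 3L, the left arm of chromosome 3 of Drosophila melanogaster, was described by the clusters of H3K9me1 enrichment that lie in it. It was taken as positions 1000001 to 21500000 of FlyBase release 5, a stretch of 20.5 Mb that leaves out the telomeric end of the arm and the 3.04 Mb next to the centromeric end of the assembled sequence. A cluster belonged to it when its midpoint fell inside these limits. Replicate 1 had 2839 such clusters of 15404 on the whole genome, replicate 2 had 2714 of 14643, and the list deposited for the whole series had 3916 of 21525. The rule uses positions and no score or coverage value, although the interval was chosen with earlier results of these data known.

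All libraries came from head nuclei of mixed adult flies of the wild-type Oregon-R-modENCODE strain, pooled from population cages, with formaldehyde-crosslinked and sonicated chromatin. There were 2 ChIP libraries, made with an H3K9me1 antibody labelled new lot 2, and 2 input libraries, and clusters of each ChIP library were called with the input of the same number. There was no second condition, so no treatment or genotype was compared, and the values below describe 1 kind of chromatin sample. Neither the sexes of the flies nor separate fly populations for the replicates are given in the labels, and the replicate spread may be purely technical. A head holds neurons, glia, muscle, fat and cuticle cells, and the clusters are a mixture over these cells. The lists carry positions and scores and no gene values, so the tissue label could not be checked against marker genes. Read depth is unknown: a stretch without a cluster is a stretch without a call, which is not the same as a stretch without the mark.

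H3K9me1 is the form of histone H3 that carries a single methyl group on a lysine of its N-terminal tail. Methyltransferases add up to 3 methyl groups there, and the forms with more groups are bound by HP1 proteins and are the hallmark of pericentric heterochromatin in flies. In human cells the monomethyl form has been mapped to active genes, unlike the forms with more groups. The interior of a fly chromosome arm is mostly euchromatin, gene-dense sequence that lies between the telomere and the pericentric heterochromatin.

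H3K9me1 clusters covered between 32.9% and 37.6% of the 3L interior in both replicates, in many short clusters. The higher value was that of replicate 1. The mean was 35.3 ± 3.29% (SD, n = 2), or 7.23 ± 0.674 Mb. The number of clusters was 2776.5 ± 88.4 (SD, n = 2), which is 13.5 ± 0.431 per 100 kb. Coverage therefore differed more between the replicates, relative to its size, than the number of clusters did. The series list, a single list with no SD whose making is not given in the sources used here, covered 56.3% of the interior.

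**Figure D1:**
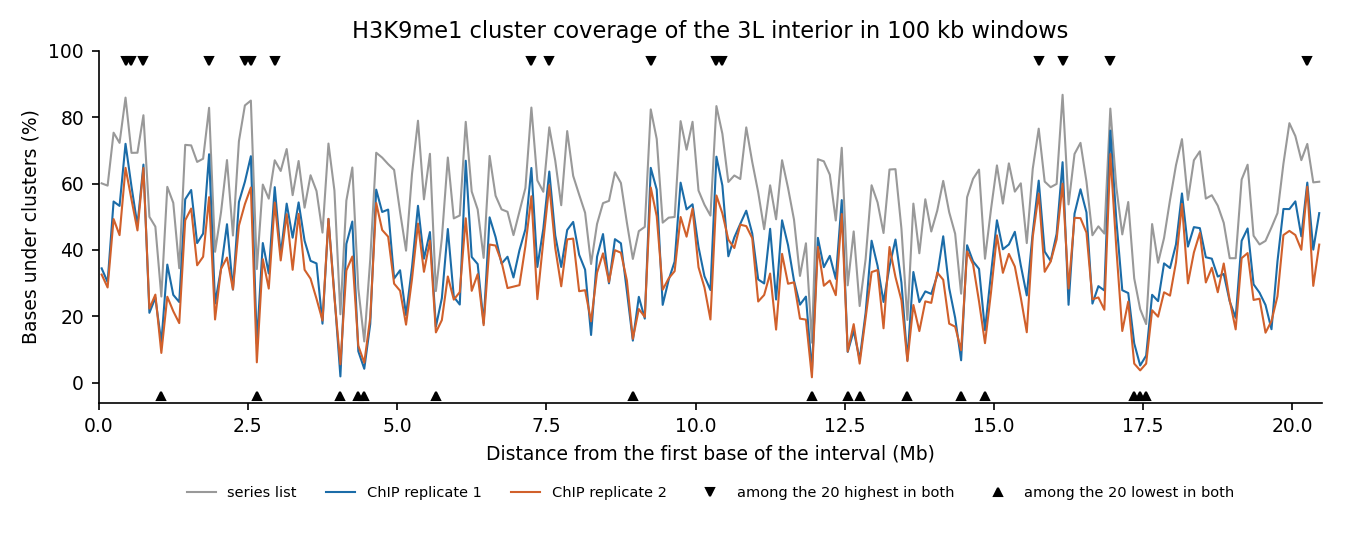
Percent of bases under H3K9me1 clusters (y axis) in 205 consecutive windows of 100 kb, by distance in Mb from the first base of the interval (x axis), for ChIP replicate 1, ChIP replicate 2 and the series list. Triangles mark the 16 windows among the 20 highest and the 16 among the 20 lowest in both replicates. Peaks and troughs mostly fall in the same windows in both replicates, and the series list lies above them.

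Coverage varied greatly along the arm on the scale of 100 kb. Over the 205 windows it ran from 1.90% to 76.0% in replicate 1, with a median of 37.4% and an interquartile range of 27.0% to 47.4%. In replicate 2 it ran from 1.63% to 68.9%, with a median of 32.0% and an interquartile range of 24.5% to 43.1%. The SD over windows was 15.1 percentage points in replicate 1 and 13.7 in replicate 2. More than 50% of bases were covered in 42 windows of replicate 1 and 24 of replicate 2, and under 10% in 10 and 12 windows. No window was free of clusters in either replicate.

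The replicates gave nearly the same profile. Pearson's r between them over the 205 windows was 0.961 and Spearman's rho was 0.953, as a description over windows of 1 pair of libraries, with no p-value. Replicate 1 was higher in 177 windows and replicate 2 in 28. The difference of replicate 1 minus replicate 2 averaged 4.65 percentage points with an SD over windows of 4.25, well under the spread of coverage between windows. The window farthest from this mean difference was 7100001 to 7200000, covered to 66.9% in replicate 1 and 49.5% in replicate 2. The next were 14200001 to 14300000, at 35.0% and 40.9%, and 11500001 to 11600000, at 38.1% and 43.1%, which were higher in replicate 2.

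**Figure D2:**
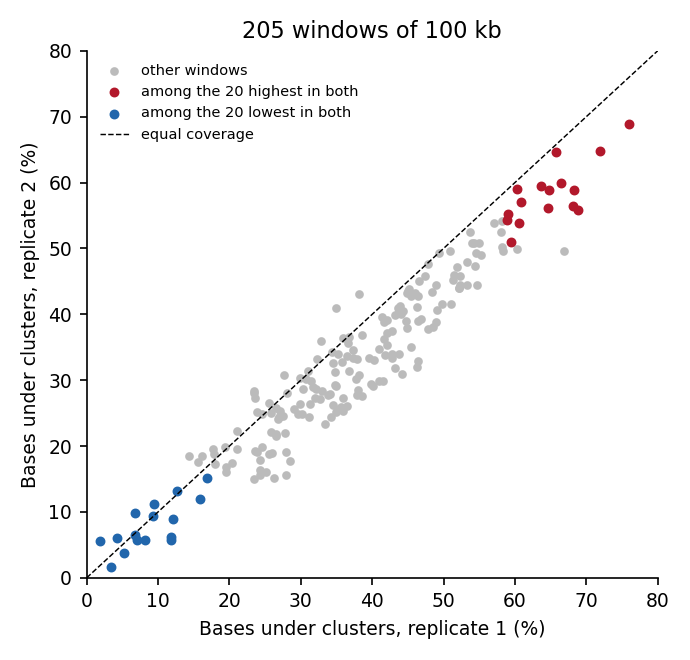
Percent of bases under clusters in replicate 1 (x axis) against replicate 2 (y axis) for the 205 windows of 100 kb, with the windows among the 20 highest or 20 lowest in both replicates in colour and the line of equal coverage dashed. Most points lie below the line, since replicate 1 was higher in 177 windows, and the windows high or low in 1 replicate were mostly so in the other.

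Windows with the densest H3K9me1 were shared. Of the 20 highest windows of each replicate, 16 were the same. The limit of this choice was narrow: the 20th and 21st highest windows held 58.2% and 58.2% in replicate 1, and 51.0% and 50.9% in replicate 2. The 16 shared windows ran from 58.9% to 76.0% in replicate 1 and from 51.0% to 68.9% in replicate 2. Of these, 10 lay on the telomeric side of position 11250000 and 6 on the centromeric side, and 6 adjoined another of the 16.

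The highest window in both replicates was 17900001 to 18000000, with 76.0% in replicate 1 and 68.9% in replicate 2. By midpoint it held 15 and 18 clusters. The widest of them, 29084 bp in replicate 1 and 28756 bp in replicate 2, was also the widest of the whole interior in each. Part of this cluster lay beyond the window, since the series cluster there ran from 17983576 to 18012866. The window 1400001 to 1500000 was next in both, with 72.0% and 64.7%. It reached this level without such a cluster, from 18 and 16 clusters of at most 8936 bp and 8645 bp. It was followed, by the mean of the replicates, by 1700001 to 1800000 with 65.7% and 64.7%, 3500001 to 3600000 with 68.2% and 58.8%, and 17100001 to 17200000 with 66.4% and 60.0%. The means of these last 3 windows ran from 63.2% to 65.2%. The replicates ranked the 3 in opposite orders, so their order is not established. The window at 17100001 ranked highest of all in the series list, at 86.7%.

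The sparsest windows were shared to the same degree, 16 of the 20 lowest of each replicate. Here the 20th and 21st lowest windows held 17.7% and 17.8% in replicate 1, and 15.6% and 16.0% in replicate 2. The 16 windows ran from 1.90% to 16.9% in replicate 1 and from 1.63% to 15.2% in replicate 2, with 7 on the telomeric side of position 11250000 and 9 on the centromeric side. The lowest mean was at 12900001 to 13000000, with 3.39% in replicate 1 from 2 clusters and 1.63% in replicate 2 from 1 cluster. The next were 5000001 to 5100000 with 1.90% and 5.54%, 18400001 to 18500000 with 5.20% and 3.71%, 5400001 to 5500000 with 4.20% and 6.03%, and 13700001 to 13800000 with 7.01% and 5.75%. Replicate 1 was lower than replicate 2 at 5000001 and 5400001 and higher at the other 3, so the replicates do not order these 5 windows alike.

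Sparse and dense windows differed in both the number and the width of their clusters. The 16 shared high windows held a median of 17.5 clusters in replicate 1 and 18.5 in replicate 2, and the 16 low windows held 4.5 and 4. In the high windows the clusters had a median width of 2956 bp in replicate 1, against 2358 bp in replicate 2, and in the low ones 1692 bp and 1724 bp. Clusters of at least 5 kb made up 58 of 282 and 40 of 307 clusters of the high windows. The low windows had no cluster wider than 3817 bp (replicate 1) or 3838 bp (replicate 2). These windows were chosen for their coverage, which number and width make up, so the values are a description. The score the authors gave each cluster was not used directly in that choice. It rose with width, however (Spearman's rho of 0.685 in replicate 1 and 0.638 in replicate 2), so the choice bears on it indirectly. The median score was 0.632 and 0.609 in the high windows and 0.552 and 0.562 in the low ones. Clusters in sparse windows thus still had scores near the median of all clusters of the interior, 0.579 and 0.563.

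Dense and sparse windows could lie side by side. The largest step between neighbouring windows was at 3600000, where coverage went from 68.2% to 11.8% in replicate 1 and from 58.8% to 6.14% in replicate 2, a drop of 54.6 ± 2.69 percentage points (SD, n = 2). At 17900000 it went up from 27.8% to 76.0% and from 22.0% to 68.9%, by 47.5 ± 0.881 points. Both steps were many times the SD between the replicates. The median step between neighbours was 10.9 points in replicate 1 and 9.83 in replicate 2, and 179 of the 204 steps had the same sign in both replicates.

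Beyond single windows, stretches above or below the median of each replicate were mostly short. The windows above the median in both replicates, 90 in all, formed 38 runs, and the 91 below it in both formed 38 runs as well, with a median of 2 windows each. The longest run below the median, of 900 kb, extended from 18100001 to 19000000 and was covered to 22.4% in replicate 1 and 16.7% in replicate 2. It began 1 window after the highest window of the interior. The longest run above the median was 700 kb, from 11300001 to 12000000, with 50.6% and 47.1%, and a run of 600 kb from 1200001 to 1800000 reached 58.7% and 54.0%.

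In windows of 1 Mb the lowest coverage lay in the centromeric part of the interior, and the highest values were spread along it. Over the 20 complete windows, coverage was lowest at 18000001 to 19000000, with 25.1% in replicate 1 and 19.1% in replicate 2. It was highest at 8000001 to 9000000 in replicate 1, with 46.9%, and at 1000001 to 2000000 in replicate 2, with 43.4%. The means of these windows were 44.0 ± 4.17% and 44.9 ± 2.05% (SD, n = 2), and the replicates ordered the pair differently. Means were 43.5 ± 2.42% at 17000001 to 18000000 and 43.3 ± 3.04% at 11000001 to 12000000. These were covered to 45.2% and 45.5% in replicate 1 and to 41.8% and 41.2% in replicate 2. Both were below the window at 1000001 in each replicate, which had 46.3% and 43.4%. The 5 lowest windows were the same in both replicates, and 4 of them were neighbours. These 4 formed a stretch from 12000001 to 16000000 covered to 29.6% and 24.8%, a mean of 27.2 ± 3.39%, against 37.2 ± 3.26% in the rest of the interior (SD, n = 2). The rest was covered to 39.5% in replicate 1 and 34.9% in replicate 2, so the stretch was lower in each. It was put together from 4 of the 5 lowest windows, so it is low by selection. The stretch was picked after its values were seen, so no test was made. The 2 sides of the interior differed less. Coverage was 39.4% and 35.0% on the telomeric side of position 11250000 and 35.7% and 30.9% on the centromeric side. Along the arm, coverage and position correlated only weakly (Pearson's r of -0.105 and -0.130 over the 205 windows, as a description).

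Clusters were mostly short. Their median width, 2064 bp in replicate 1, was 1966 bp in replicate 2, and the mean of these was 2015 ± 69.3 bp (SD, n = 2). The interquartile range was 1586 to 3131 bp and 1548 to 2846 bp. The narrowest cluster was 1301 bp wide in both replicates and 1001 bp in the series list, and no source used here gives the settings of the caller. Wide clusters were few and held a sizeable part of the covered sequence. In replicate 1, 254 clusters of at least 5 kb, or 8.95%, held 23.9% of the covered bases. In replicate 2, 165 such clusters, or 6.08%, held 17.1%. Clusters of at least 10 kb numbered 27 in replicate 1, 12 in replicate 2 and 93 in the series list.

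**Figure D3:**
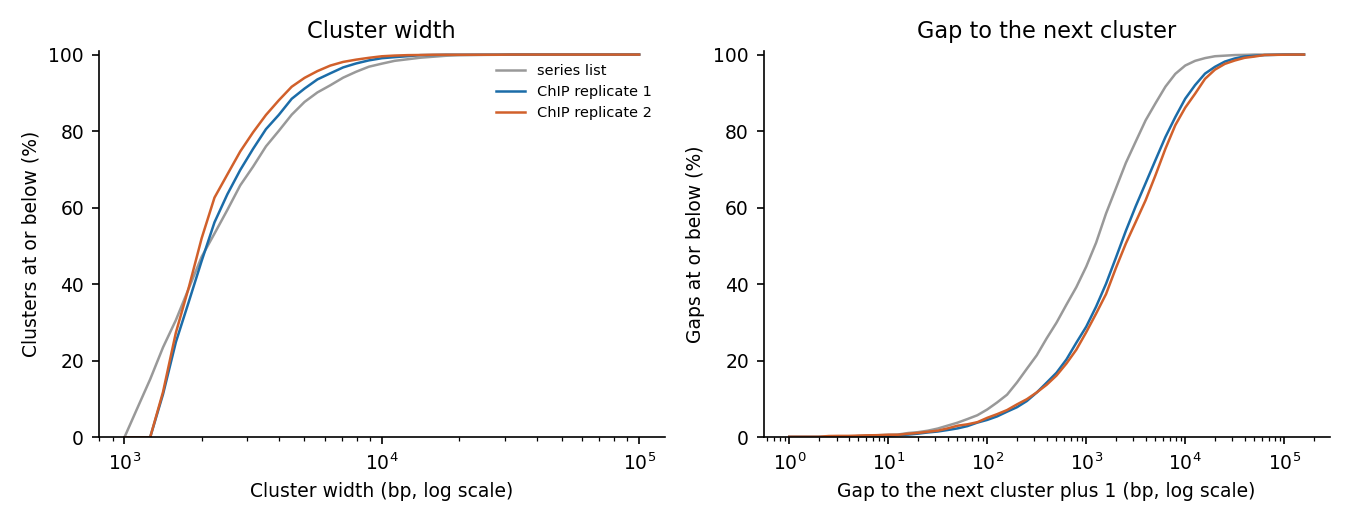
Cumulative percent of clusters by width in bp (left) and of gaps between neighbouring clusters by length plus 1 bp (right), both on log x axes, for ChIP replicate 1, ChIP replicate 2 and the series list. The replicate curves start at 1301 bp and lie close together, with replicate 2 narrower and its gaps longer; the gaps of the series list are shorter, with a median of 1223 bp.

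Spacing varied more than width. From the end of a cluster to the start of the next, the median gap was 2198 bp in replicate 1, against 2466 bp in replicate 2, a mean of 2332 ± 190 bp (SD, n = 2), and mean gaps were 4506 bp and 5066 bp. The coefficient of variation of gaps was 1.52 and 1.49, against 0.676 and 0.626 for widths. No width was under 1301 bp, whereas gaps reached 0 bp, so these coefficients are not strictly comparable. Short gaps were common: 16.9% and 16.2% of gaps were at most 500 bp, and 4 gaps in replicate 1 and 5 in replicate 2 were 0 bp, so that separate clusters abutted. At the other end, 327 and 376 gaps of at least 10 kb held 47.9% and 52.7% of the sequence between clusters. Midpoints of neighbouring clusters lay a median of 5271 bp and 5243 bp apart. A gap told little about the next one (Pearson's r of 0.0969 and 0.0999 between the logs of successive gaps, as a description over gaps).

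Stretches free of clusters in both replicates were numerous and of moderate length. There were 65 of at least 20 kb, together 1.98 Mb or 9.64% of the interior, 32 on the telomeric side of position 11250000 and 33 on the centromeric side. All 65 contained at least part of a series cluster, but the series list itself had only 17 gaps of at least 20 kb in the interior. Series clusters covered a median of 15.2% of these stretches, against 56.3% of the whole interior. The 5 longest were the only ones of at least 50 kb. The longest, 13743587 to 13833930 (90.3 kb), had 4.17% of its bases under 5 series clusters. The others were 18482313 to 18545009 (62.7 kb), 5019477 to 5080197 (60.7 kb), 1984705 to 2039529 (54.8 kb) and 5476269 to 5527138 (50.9 kb), of which series clusters covered from 9.07% to 15.2%.

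Across all windows, both the number and the width of clusters went with coverage. Pearson's r of coverage with the number of clusters was 0.814 in replicate 1 and 0.874 in replicate 2, and with their mean width 0.731 and 0.657, as descriptions over the 205 windows of 1 library each. In the 51 windows with the highest coverage there were 17.2 and 18.0 clusters per window with a mean width of 3313 bp and 2840 bp. In the 51 lowest there were 8.65 and 7.75 with a mean width of 2133 bp and 2036 bp. Number differed by a larger factor than width between these sets. Coverage is made up of number and width, and the windows were ranked by it, so these values are a description. In the series list the relation was different: r was 0.292 with number and 0.760 with mean width, and its 51 highest and 51 lowest windows held 18.6 and 17.0 clusters per window.

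Wider clusters had higher scores. The deposited score has no stated scale and was used to rank clusters within a list. Scores of different lists are given side by side as deposited and may not share a scale. Spearman's rho of width with score was 0.685 in replicate 1 and 0.638 in replicate 2. The median score was 0.781 and 0.734 among clusters of at least 5 kb and 0.486 and 0.494 among those under 2 kb. Of the clusters in the highest decile of score, 129 in replicate 1 and 128 in replicate 2 lay in the 51 windows with the highest coverage, where they made up 14.7% and 13.9% of clusters. In the 52 lowest windows there were 22 and 23, or 4.87% and 5.65% of clusters. These windows were ranked by coverage, which wide clusters raise, and wide clusters scored higher, so this difference is a description.

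The strongest single clusters were not confined to dense windows. Among series clusters that touched a cluster of each replicate, the highest score was at 11953088 to 11958295, 5.21 kb wide, and scored 1.27 in the series list, 1.43 in replicate 1 and 1.24 in replicate 2. Its window was covered to a mean of 44.3%. The next was 17441718 to 17447188, 5.47 kb wide, with scores of 1.25 in the series, 1.32 in replicate 1 and 1.24 in replicate 2. The one ranked after these, 18796013 to 18802883, 6.87 kb wide with scores of 1.12, 1.26 and 1.07, lay inside the 900 kb run below the median, in a window covered to 22.2% that ranked 166 and 165 of 205. The clusters at 4484931 to 4488523 (series score 1.09) and 1325621 to 1330003 (1.04) completed the 5 highest. Each of the 5 was a single cluster in each replicate, covered to at least 90.9%.

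The widest shared clusters of the series list were often made of several replicate clusters. The widest, 11389743 to 11421523 (31.8 kb), corresponded to 4 clusters in replicate 1 and 8 in replicate 2, which covered 90.5% and 79.8% of it. The next, 17983576 to 18012866 (29.3 kb), was 1 cluster in each replicate, covered to 99.2% and 98.2%, and is the one that makes up part of the highest window. Immediately before it lay 17955348 to 17981373 (26.0 kb), in 4 clusters in each replicate. The others were 1401640 to 1425171 (23.5 kb), in the window that ranked next to the highest in both replicates, and 19167595 to 19190870 (23.3 kb).

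The replicates shared most of their covered sequence, 5.69 Mb, and wide clusters touched the other replicate most often. The Jaccard index, the overlap divided by the union of both lists, was 0.650. The overlap made up 73.9% of replicate 1 bases and 84.3% of replicate 2 bases. Over the whole interior, replicate 2 covered 32.9% of bases and replicate 1 covered 37.6%. In clusters, 78.1% of replicate 1 touched a replicate 2 cluster by at least 1 bp, and 87.1% of replicate 2 touched a replicate 1 cluster. Of clusters under 2 kb, 60.0% of replicate 1 and 77.6% of replicate 2 touched the other replicate. Of clusters from 2 kb to under 5 kb, 92.4% and 96.9% did. All 254 and 165 clusters of at least 5 kb did. A wider cluster has more bases in which to meet another, and no allowance was made for that. The share that would touch under random placement was not computed, so these percentages are descriptions.

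Matching clusters also began and ended at nearly the same positions. There were 1788 pairs in which a replicate 1 cluster and a replicate 2 cluster met only each other. Their ends differed by a median of 127 bp, with an interquartile range of 52 to 320 bp, and their midpoints by a median of 117 bp. Pairs were kept only where 2 clusters overlapped, which limits how far apart ends and midpoints can lie. They leave out the rest of the 2839 and 2714 clusters, so these distances are a description. Replicate 1 was the wider in 1140 pairs, or 63.8%, and the median difference of replicate 2 minus replicate 1 was -91.5 bp. Scores of the pairs correlated as well (Pearson's r 0.764, Spearman's rho 0.702), a description over clusters of the same 2 libraries. There were 248 replicate 1 clusters that met more than 1 replicate 2 cluster, against 124 in the other direction.

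The coverage of neighbouring sequence was correlated over short distances. Coverage was measured in 2050 bins of 10 kb, and each bin was correlated with the bin at a given distance (lag) in the same library. Pearson's r was 0.406 in replicate 1 and 0.364 in replicate 2 at 10 kb, 0.297 and 0.274 at 20 kb, and 0.159 and 0.133 at 60 kb. It was 0.126 and 0.130 at 80 kb and fell to 0.0738 and 0.0722 at 90 kb, the first lag with r at or below 0.1 in each replicate and in the series list. With only the clusters at or above the median score of their list, that lag was 50 kb. Over all clusters, r first reached 0 at 250 kb in replicate 1 and at 180 kb in replicate 2. In replicate 2 it rose again, to 0.0552 at 200 kb and 0.0564 at 240 kb, against 0.0305 and 0.0243 in replicate 1. From 200 kb to 3 Mb, r stayed between -0.0700 and 0.0731 in replicate 1 and between -0.0665 and 0.0831 in replicate 2. The extremes of both replicates were of about the same size in either direction. The lowest r was at 2590 kb in both, and the highest at 670 kb in replicate 1 and 820 kb in replicate 2. At 300 kb r was -0.00609 and -0.00204, and at 370 kb it was 0.0443 and 0.0710. Whether any distance repeats was not tested.

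**Figure D4:**
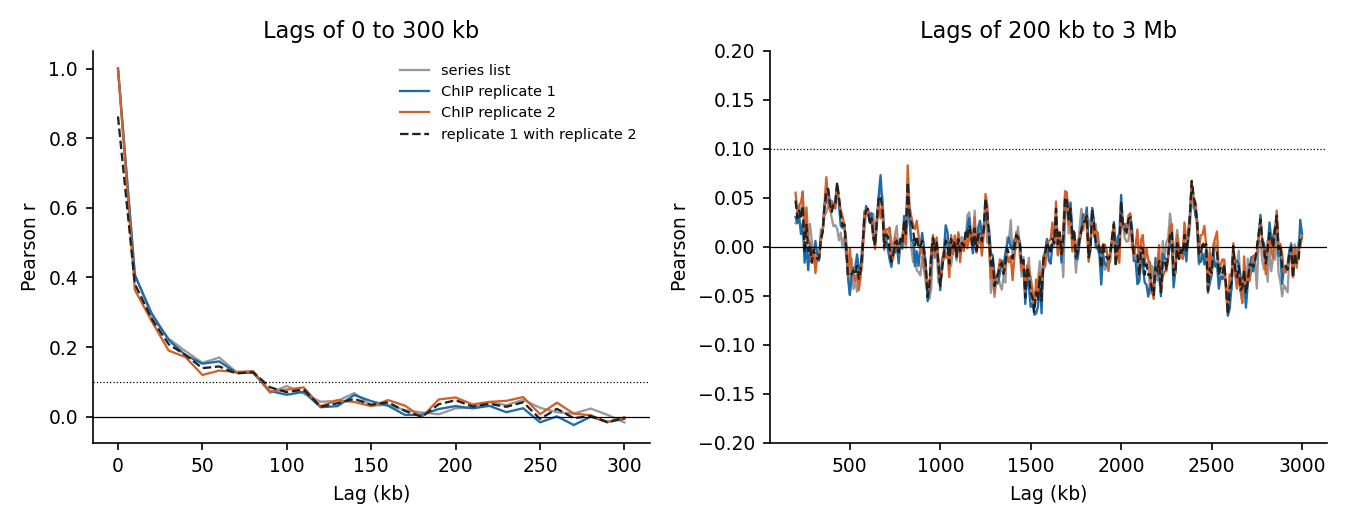
Pearson's r of coverage between 10 kb bins of the 3L interior (y axis) by lag in kb (x axis), for lags of 0 to 300 kb (left) and 200 kb to 3 Mb (right), within ChIP replicate 1, ChIP replicate 2 and the series list, and between the replicates (dashed). The dotted line marks r of 0.1, which all curves first reach at 90 kb; beyond 200 kb they vary about 0.

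The same decline was seen between libraries. Replicate 1 at a position was correlated with replicate 2 at a distance from it. This r was 0.862 at a lag of 0, 0.381 at 10 kb, 0.144 at 60 kb and 0.0845 at 90 kb, close to the values within each replicate at the same lags above 0. A cluster that crosses a bin edge covers bases in both bins. Clusters of at least 10 kb held 4.58% of the cluster bases in replicate 1 and 2.37% in replicate 2, and the part of cluster width in r was not tested. In windows of 100 kb, r between neighbouring windows was 0.283 and 0.302, and 2 windows apart it was 0.0614 and 0.127. For these windows it was 0.0117 and 0.0239 at 300 kb, 0.0981 and 0.108 at 400 kb, and -0.144 and -0.122 at 2600 kb. The 16 shared high windows, covered to 61.6 ± 4.56%, had neighbours covered to 43.3 ± 3.74% on the telomeric side and 38.8 ± 3.15% on the centromeric side (SD, n = 2). The 16 low windows, at 8.42 ± 0.743%, had neighbours at 28.0 ± 2.41% and 24.5 ± 2.53%. Windows 400 kb from the high ones were covered to 43.6 ± 3.77% and 39.2 ± 2.61%, as much as the direct neighbours. The sets were chosen for extreme coverage, so the difference between them and their neighbours is a description.

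Coverage stayed uneven in wide windows. The SD over windows fell from 26.0 ± 1.09 percentage points at 10 kb to 14.4 ± 0.970 at 100 kb and 6.90 ± 0.148 at 1 Mb (SD over replicates, n = 2). If 10 kb bins had been unrelated, averaging would have lowered it to 8.22 at 100 kb and 2.60 at 1 Mb. The observed SD was 1.75 ± 0.0443 times that value at 100 kb, 2.30 ± 0.0617 times at 500 kb and 2.66 ± 0.169 times at 1 Mb.

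**Figure D5:**
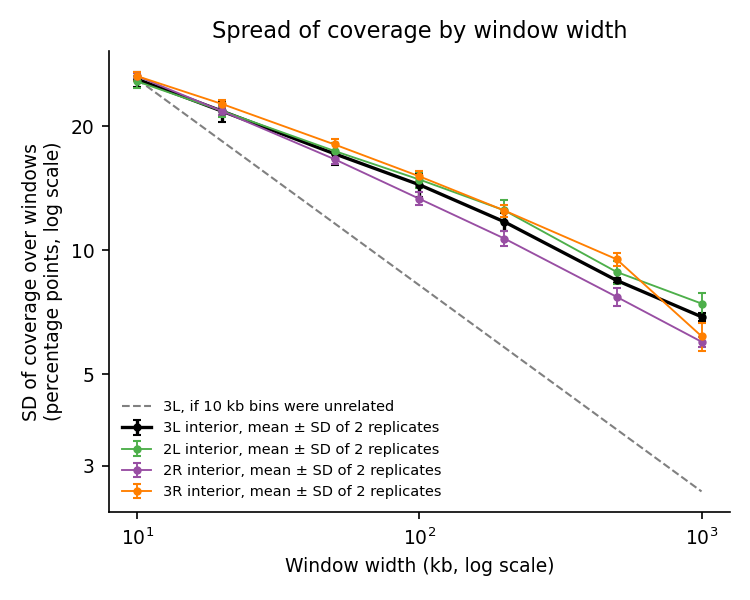
SD of coverage over windows, in percentage points (log y axis), by window width in kb (log x axis), for the interiors of 3L, 2L, 2R and 3R; points are means and bars SDs of the 2 ChIP replicates. The dashed line shows the 3L values that unrelated 10 kb bins would give; at 1 Mb the 3L value of 6.90 lies above the 2.60 of that line.

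The 3L interior was set beside comparable intervals of the other autosomal arms, cut 1 Mb from the telomeric end and 3 Mb from the centromeric end. Its coverage of 35.3 ± 3.29% lay between 33.7 ± 2.90% on 3R and 40.5 ± 2.71% on 2R, and 2L had 32.3 ± 3.13% (SD, n = 2). Within each library 3L was above 3R, by 1.87 points in replicate 1 and 1.32 in replicate 2, above 2L by 3.11 and 2.88, and the difference of 3L minus 2R was -4.84 and -5.66. These differences had the same sign in both libraries, but an exact sign test over 2 libraries cannot give a two-sided p below 0.5, so none of them is established. Median widths were close, 2015 bp on 3L against 2001 bp on 2L, 2018 bp on 3R and 2101 bp on 2R. Median gaps ran in the reverse order of coverage, 2136 bp on 2R, 2332 bp on 3L, 2568 bp on 3R and 2687 bp on 2L. The first lag with r at or below 0.1 was 90 kb on 3L and 2L, 100 kb on 3R and 60 kb on 2R, the same in both replicates of each arm.

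The series list contained nearly all of the 3L clusters of both replicates and much besides. Replicate 1 had 99.4% and replicate 2 had 99.6% of its covered bases inside series clusters. Both replicates covered 49.3% of the series bases of the interior, a single replicate 26.0%, and neither one 24.7%. A median width of 3403 bp was found for the 1930 series clusters that met both replicates, and of 1264 bp for the 1169 that met neither, which were 29.9% of all. In the 16 low windows the series list covered from 12.1% to 37.3%, and in the 16 high windows from 67.0% to 86.7%. It placed 12 of the 16 high windows and 14 of the 16 low windows among its own 20 highest and 20 lowest.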

How the data were processed

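The submitters' processing notes name Bowtie 0.12.7, and positions are on FlyBase release 5, per the file headers. The authors deposited 3 lists of enriched clusters, each with a signed score per cluster. For the caller, its threshold, the scale of the score and the combination of replicates, the answer is not given in the sources used here.

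Clusters on 3L with midpoints from 1000001 to 21500000 were kept. Coverage, in percent of bases, was taken in windows of 100 kb cut from the first base, and in bins of 10 kb for autocorrelation up to 3 Mb. Values are mean ± SD of 2 ChIP libraries; no resampling was done, and correlations are descriptions. Named were the 5 highest and 5 lowest windows among the 20 of both replicates, the 5 highest-scoring and 5 widest series clusters touching both replicates, the 5 longest shared cluster-free stretches and the 3 most discordant windows. Windows of 1 Mb, steps, runs and the stretch of 4 Mb were added after values were seen. Members and measures were chosen with earlier results of these data known. Alternatives covered lists, score threshold, joining, interval ends, windows and bins. The functions were tested on simulated data. The gene table used here is on release 6, so no gene was assigned and no sequence is shown. The input libraries have no list of their own here. Software was NumPy 2.4.6, SciPy 1.17.1, pandas 2.3.3 and Matplotlib 3.10.9 under Python 3.11.15.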

Additional observations from a re-analysis of the deposited data

Results flagged for a closer look

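The values above do not use the regions typed as depleted. The series list types 8 regions of the 3L interior as depleted, of 31 on the whole genome, where neither replicate list has any there. Their widths ran from 1345 to 1608 bp and their scores from -0.0929 to -0.00380. These scores are small in size beside the median of 0.402 of the enriched series clusters of the interior. Of the 8, 6 overlapped an enriched cluster of replicate 1, and 1 of these, 16383737 to 16385344, also overlapped one of replicate 2. Enriched clusters covered 37.6% of the bases of the interior in replicate 1 and 32.9% in replicate 2. The share of regions of this width that would overlap under random placement was not computed. The replicate 1 clusters there had scores from 0.0348 to 0.237, far below the median of 0.579. The lowest series score was at 19332416 to 19333826, where the replicate 1 cluster had the lowest score of that replicate in the interior, 0.0348. All 8 lay on the centromeric side of position 11250000, as did 1994 of the 3916 enriched series clusters. The cause was not tested.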

How the results depend on the processing

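Of the alternatives, 26 values stayed within the spread between replicates or within 1.5 times a count, and 17 moved further. Another 6, coverage, width and gap with 1 replicate left out, lie within the SD of 2 replicates by construction and say nothing of stability. Leaving out each replicate gave coverage of 32.9% to 37.6%, 2714 to 2839 clusters, median widths of 1966 to 2064 bp, median gaps of 2197.5 to 2466 bp and an autocorrelation range of 90 kb each time. In the series list coverage was 56.3% and the median gap 1223 bp, and the cause was not tested. Clusters scoring at or above their list's median, fewer by construction, numbered 1389 and covered 22.7%, with a median width of 2710 bp, a median gap of 6113.5 bp, a Jaccard index of 0.551 and a range of 50 kb. Joining clusters at most 500 bp apart gave a median width of 2193 bp, a median gap of 3177 bp and an index of 0.653, and taking 1 Mb off each end gave an index of 0.645. With 20 kb bins the range was 100 kb. Lags then go in steps of 20 kb, so 90 kb could not recur and this move follows from the bin width. Of the 40 highest and 40 lowest windows of 50 kb, 30 and 29 were shared, and of the 10 highest and 10 lowest of 200 kb, 8 and 7; these counts follow the number of windows taken. Jaccard indices have no spread between replicates, so any change counted as a move. No paired analysis was possible because the input libraries have no cluster list of their own here, and each was used only in calling clusters of the ChIP library with its number. Since depth is unknown, stretches without clusters may hold the mark below the calling threshold.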

Other observations

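The highest scores of the series list in the 3L interior were in clusters that neither replicate called, a pattern noticed after the values were seen. The 3 series clusters with scores above the 1.27 of the highest cluster shared by both replicates were 7668857 to 7669936 with 3.01, 10408157 to 10409157 with 2.88 and 5112522 to 5113532 with 1.95. They were 1080, 1001 and 1011 bp wide, at or near the minimum of that list, and no base of them was under a cluster in either replicate. The highest scores in the replicates were 1.45 at 1591929 to 1598266 in replicate 1 and 1.24 at 17442002 to 17447170 in replicate 2, in clusters of 6338 and 5169 bp.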
